A study of Danio rerio with 16 samples.

Results

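The change of each transcript between 4 and 7 hours post fertilisation (hpf) was compared between zebrafish primordial germ cells (PGCs) and somatic cells, as the difference between the log2 change in PGCs and the log2 change in soma. The comparison rests on 8 of the 16 RNA-seq libraries of the series, chosen by stage and cell type alone: PGCs at 7 and at 4 hpf and soma at 7 and at 4 hpf, in 4 groups of 2 replicate libraries each. Of 34289 genes in the deposited count table, 20536 passed the filter on low counts and were tested. PGCs and somatic cells were sorted by FACS from embryos of a transgenic line, kop-EGFP-F-nos3’UTR, in which the *kop* promoter and the *nos3* 3′ UTR place EGFP in PGCs, so that the sorted somatic cells come from embryos with the same transgene and are a mixture of all lineages that were not sorted as PGCs. The 4 hpf embryo is a blastula and the 7 hpf embryo a gastrula, and the labels give no further treatment or allele. The study's methods add that the transgene also carries *cry:dsred*, that eggs were raised at several temperatures and that embryos past 24 hpf were treated with N-phenylthiourea against pigment. The labels do not say that replicates came from separate clutches, although the study describes its replicates as biologically independent, and p-values measure the spread between these libraries. The 8 libraries held between 2825758 and 7076543 expected counts, and 3 counts corresponded to between 0.483 and 0.719 CPM (counts scaled to library size after TMM normalisation).

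In the early zebrafish embryo, development first runs on RNAs that the mother placed in the egg. As the embryonic genome is switched on during the blastula stages, many of these maternal RNAs are deadenylated and degraded, in part through the microRNA miR-430, while new zygotic RNAs accumulate. PGCs inherit the germ plasm, a maternal store of RNAs and proteins such as Nanos3, Dnd1, Tdrd7 and Ddx4 (Vasa), and in zebrafish germ-plasm proteins are known to shield some RNAs from this clearance.

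No gene was called in the difference of changes in either direction with edgeR's quasi-likelihood test, that is with a Benjamini-Hochberg adjusted p under 0.05 and a log2 difference past 1.5 (0 of 20536 genes, 0% in each direction; the lowest adjusted p was 0.0722). At an unadjusted p under 0.05 and the same size, the PGC change lay above the soma change for 1233 genes (6.0% of those tested) and below it for 540 genes (2.63%). With the same thresholds, DESeq2 called 288 genes higher (2.09% of those to which it gave an adjusted p) and 64 lower (0.465%). The likelihood ratio test of edgeR called 309 (1.5%) and 86 (0.419%), and the quasi-likelihood test restricted to the 8 libraries 49 (0.329%) and 5 (0.0336%). Leaving out soma 7 hpf replicate 1 brought the calls of the quasi-likelihood test on all libraries to 35 higher (0.17%) and 2 lower (0.00974%), and leaving out any other of the 8 libraries left them at 0. The calls therefore depend on the test and on a single library. The differences below are given as values without a call, and with standard errors for only a part of them.

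The change in relative level between the stages was smaller in PGCs than in soma. Levels are scaled to library size, so amounts of RNA per cell were not measured. In soma, 1907 genes were called higher at 7 than at 4 hpf (9.29% of those tested) and 1925 lower (9.37%). In PGCs, 1033 genes were called higher (5.03%) and 428 lower (2.08%). Among the 10522 genes that averaged 5 CPM or more over the 8 libraries, the median size of the change was 0.64 on the log2 scale in PGCs and 1.06 in soma, and 7391 of them (70.2%) had the smaller change in PGCs. The 2 changes, which share no library, went in the same direction for most genes (Pearson's r = 0.787 across these genes, which are not independent replicates), and 0 genes were called in opposite directions in PGCs and soma. Of the genes that fell in soma, 1597 were not called in PGCs, where their median change was -0.97, against -2.89 in soma, and 328 fell in both. Of the genes that rose in soma, 1184 were not called in PGCs, with a median change of 1.10 in PGCs and 2.28 in soma, and 723 rose in both. These groups were chosen on a part of the contrast, so their medians describe them and test nothing.

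**Figure D1:**
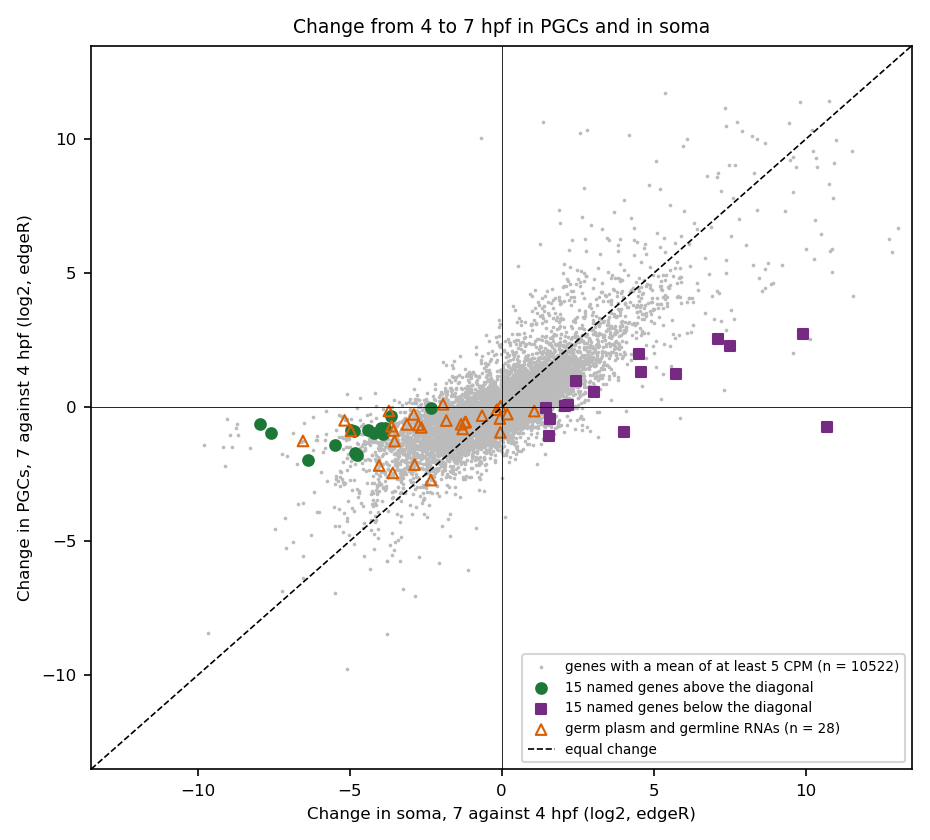
Each point is a gene, with its log2 change from 4 to 7 hpf in soma on the x axis and in PGCs on the y axis (edgeR fit; the dashed line marks equal change). The 15 named genes above the line (circles) lie left of zero, with PGC changes between -1.98 and -0.029, the 15 named below it (squares) lie to the right of zero, and 23 of the 28 germ plasm and germline RNAs (triangles) lie above it.

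Most genes past the unadjusted threshold with a PGC change above their soma change fell in soma. The soma change is a part of the contrast, so this describes the genes chosen and tests nothing. Of the 1233 genes with an unadjusted p under 0.05 in this direction, 731 (59.3%) fell in soma and were not called in PGCs, 46 fell in both, 94 rose in PGCs and were not called in soma, 18 rose in both and 344 were called in neither. A group in which no library passed 3 counts was present for 467 of the 1233, and for 7427 of all 20536 genes tested. Of the 690 that also averaged 5 CPM or more and had PGC changes that did not overlap the soma changes in any of the 4 pairings of a 7 hpf with a 4 hpf library, 523 (75.8%) fell in soma and were not called in PGCs. In that set the medians of the group means were 20.2 CPM in PGCs at 7 hpf against 27.6 CPM at 4 hpf, and 4.00 CPM in soma at 7 hpf against 24.5 CPM at 4 hpf. The median effective length, RSEM's count of the positions from which a fragment can come, was 2434 bases in that set, 1750.2 bases in the corresponding 242 genes of the other direction and 1979.8 bases among all genes of at least 5 CPM, and the part of length in the result was not tested beyond offsets from these lengths, which also gave 0 calls. Across all genes tested, changes that did not overlap were seen for 12.4% with PGCs above soma and for 11.9% with PGCs below.

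The 15 genes of smallest p in this direction, among those averaging 5 CPM or more and with changes that did not overlap, are given first by those that act on the cytoskeleton and membranes. *clasp1a* (ENSDARG00000010280), which encodes a protein that binds the growing ends of microtubules, kept its level in PGCs: PGCs had 125 and 136 CPM at 7 hpf against 134 and 132 CPM at 4 hpf. Soma had 28.7 and 33.0 CPM at 7 hpf against 146 and 159 CPM at 4 hpf. The libraries other than those of 7 hpf soma lay between 125 and 159 CPM, and both of 7 hpf soma lay apart from them. Its change was -0.029 in PGCs and -2.31 in soma (adjusted p = 0.000116). On the log2 scale the difference of changes was 2.28 (standard error 0.36, adjusted p = 0.0722). For *kif1c* (ENSDARG00000098655), a kinesin motor that moves cargo along microtubules, PGCs had 56.3 and 73.8 CPM at 7 hpf against 124 and 97.5 CPM at 4 hpf. Soma had 11.1 and 5.69 CPM at 7 hpf against 117 and 127 CPM at 4 hpf. The 7 hpf soma libraries of *kif1c* were the lowest of the 8, and the difference of changes was 3.07 (standard error 0.50, adjusted p = 0.0813). *pacsin3* (ENSDARG00000099339), which encodes an F-BAR protein of membrane curvature and endocytosis, fell in both cell types but further in soma, with log2 changes of -1.79 in PGCs (adjusted p = 0.00686) and -4.75 in soma (adjusted p = 2.51e-05). Its libraries held 26.6 and 28.9 CPM in PGCs at 7 hpf, against 112 and 80.1 CPM at 4 hpf, and 3.54 and 3.28 CPM in soma at 7 hpf, against 99.7 and 85.5 CPM at 4 hpf. *shroom1* (ENSDARG00000094181), of a family of actin-binding proteins that shape epithelial cells, had a difference of changes of 3.20 and *phactr2* (ENSDARG00000027172), a phosphatase and actin regulator, one of 4.37 (adjusted p = 0.0919 and 0.0722). In both, the lower PGC library at 7 hpf lay above the higher soma library of that stage, at 23.5 against 1.93 CPM for *shroom1* and 8.93 against 0.875 CPM for *phactr2*. The soma libraries of 7 hpf held only 2 and 4 counts of *phactr2*, so the size of its difference is uncertain.

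Others of the 15 act in signalling. *tsc1a* (ENSDARG00000026048) encodes hamartin, a part of the complex that restrains the growth kinase mTORC1. For this gene, PGCs had 91.7 and 184 CPM at 7 hpf against 273 and 237 CPM at 4 hpf. Soma had 13.7 and 5.03 CPM at 7 hpf against 258 and 286 CPM at 4 hpf. The PGC libraries of 7 hpf differed from each other, and both lay above both soma libraries of that stage. The gene fell in soma (log2 change -4.84, adjusted p = 8.83e-05), its change in PGCs was -0.89 (adjusted p = 0.245), and the difference of changes was 3.95 (standard error 0.65, adjusted p = 0.0813). *nf2a* (ENSDARG00000020204) encodes merlin, which acts upstream of the Hippo kinases. Its values ran alike: PGCs had 44.3 and 62.0 CPM at 7 hpf against 110.0 and 104 CPM at 4 hpf. Soma had 9.34 and 8.31 CPM at 7 hpf against 112 and 149.6 CPM at 4 hpf. The log2 difference of changes came to 2.88 (standard error 0.53, adjusted p = 0.0919). *adcy5* (ENSDARG00000091342), an adenylyl cyclase that makes cyclic AMP, fell in PGCs (log2 change -1.70, adjusted p = 0.0152) and in soma (log2 change -4.81, adjusted p = 5.25e-05). *pank1a* (ENSDARG00000008192), a pantothenate kinase of coenzyme A synthesis, had a difference of changes of 4.10 (adjusted p = 0.0722) and *ahr2* (ENSDARG00000021833), an aryl hydrocarbon receptor, one of 3.33 (adjusted p = 0.0919). That of *pank1a* rests on few soma reads at 7 hpf, with 8 and 3 counts. For *ahr2*, PGCs had 13.0 and 24.0 CPM at 7 hpf against 21.2 and 24.4 CPM at 4 hpf. Soma had 1.77 and 1.31 CPM at 7 hpf against 16.1 and 23.1 CPM at 4 hpf. The PGC libraries of *ahr2* overlapped between the stages, and those of soma did not. *ttc13* (ENSDARG00000063242), which encodes a protein with tetratricopeptide repeats, and *thap7* (ENSDARG00000070704), which encodes a zinc-finger protein of the THAP family, fell in soma, with log2 changes of -4.21 and -4.38 (adjusted p = 5.25e-05 and 0.000116). Their differences of changes were 3.26 and 3.53 (standard errors 0.51 and 0.63). That of *thap7* rests on few soma reads at 7 hpf, with 6 and 8 counts.

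The 15 also held 2 genes of the circadian clock. *ciarta* (ENSDARG00000058094) encodes a repressor of clock transcription: PGCs had 18.6 and 23.7 CPM at 7 hpf against 68.4 and 42.6 CPM at 4 hpf. Soma had 0.644 and 1.31 CPM at 7 hpf against 57.5 and 28.3 CPM at 4 hpf. Its change was -1.39 in PGCs (adjusted p = 0.0479) and -5.47 in soma (adjusted p = 5.25e-05). This gave a log2 difference of changes of 4.08 (standard error 0.65, adjusted p = 0.0722), which rests on few soma reads at 7 hpf, with 4 and 6 counts. *cry1ab* (ENSDARG00000011583), a cryptochrome that represses the clock activators, was at 11.7 and 30.8 CPM in PGCs at 7 hpf, against 26.7 and 39.5 CPM at 4 hpf. In soma it held 1 and 0 counts at 7 hpf, against 145 and 98 counts at 4 hpf. The summed soma counts gave a 7 over 4 hpf ratio of 0.00356, with an exact 95% interval for counting error alone from 8.98e-05 to 0.0200. *smcr8a* (ENSDARG00000052818), whose product acts with C9orf72 in autophagy, also held 1 and 0 soma counts at 7 hpf, against 86 and 109 at 4 hpf, a ratio of 0.00444 (exact 95% interval from 0.000112 to 0.0250). PGCs had 14.2 and 20.9 CPM of *smcr8a* at 7 hpf, against 31.6 and 36.1 CPM at 4 hpf. With so few soma counts at 7 hpf, the fitted log2 differences of these 2 genes depend on the prior count and are not given. Of the 15 genes, 15 fell in soma and 3 fell in PGCs (*phactr2*, *pacsin3* and *adcy5*), and 14 are on the list of 100 genes that the study had selected as enriched in 7 hpf PGCs from these libraries, so the list is no independent evidence of their direction. *kif1c* was the exception. The 15 adjusted p-values for the difference of changes lay between 0.0722 and 0.0919. All 15 were called by DESeq2 and by the likelihood ratio test, and 14 of the 15 (all but *ahr2*) by the quasi-likelihood test on the 8 libraries alone. The genes were chosen by their p on the same counts, and the soma change is a part of the contrast. Their falls in soma and their calls by these other tests are therefore no further evidence.

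**Figure D2:**
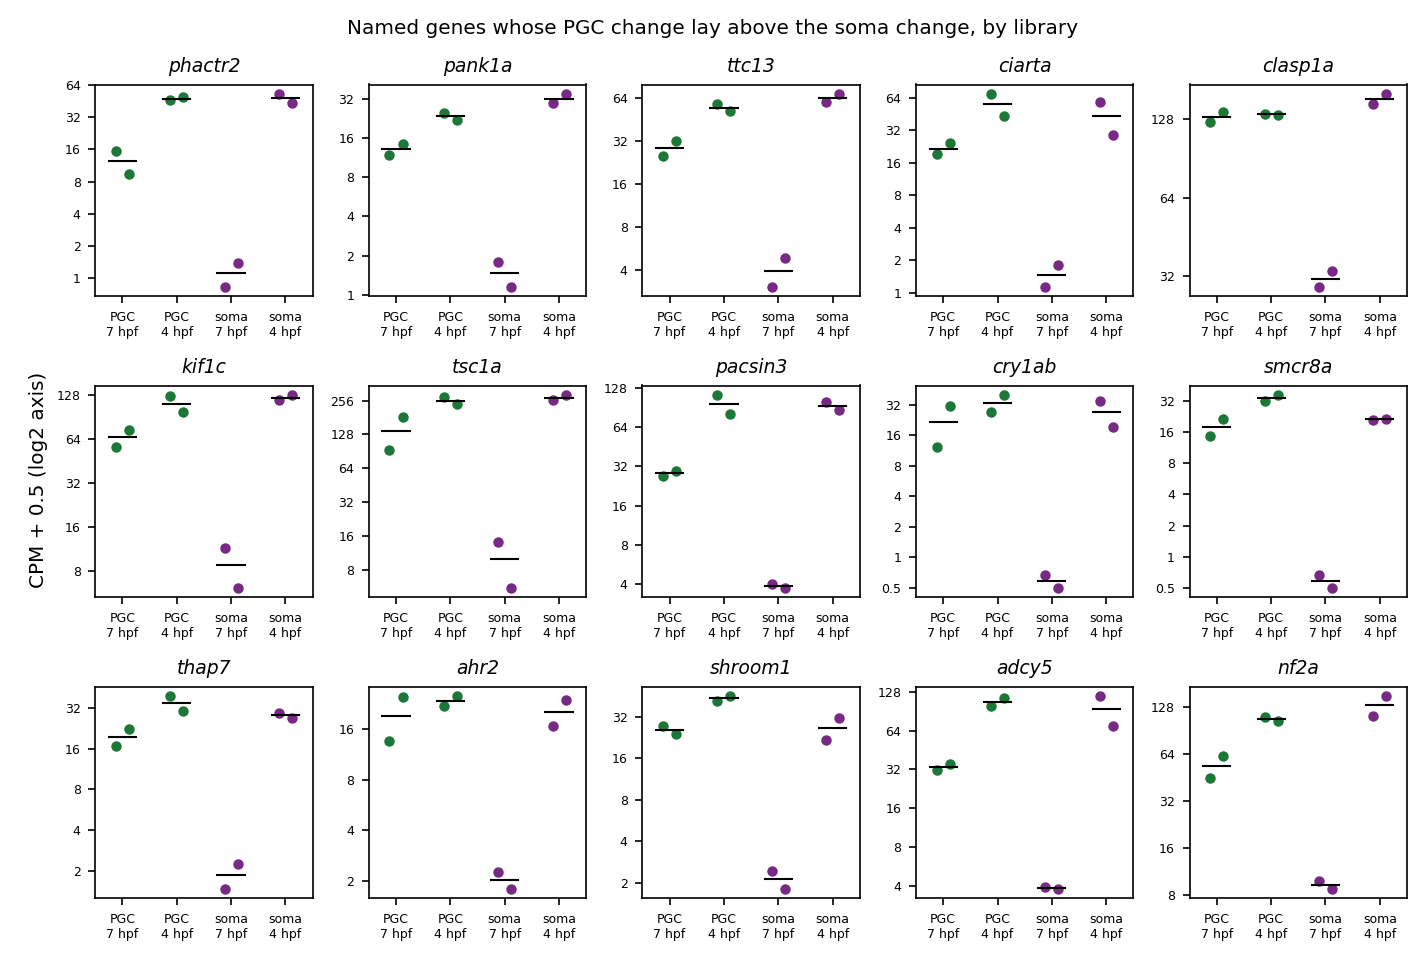
CPM + 0.5 (log2 axis) of the 15 named genes whose PGC change lay above the soma change, in the 2 libraries (points) of each group, with the line at the mean. In every panel the 2 soma libraries of 7 hpf are the lowest of the 8, and the soma libraries of 4 hpf stand near the PGC libraries of 4 hpf.

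In the other direction, genes that rose in soma and were not called in PGCs were the largest class past the unadjusted threshold, which again describes the choice. Of the 540 with an unadjusted p under 0.05, 236 (43.7%) rose in soma and were not called in PGCs, 47 rose in both, 20 fell in PGCs and were not called in soma, 4 fell in both and 233 were called in neither. A group in which no library passed 3 counts was present for 277 of the 540. Of the 242 that averaged 5 CPM or more and did not overlap, 131 (54.1%) rose in soma and were not called in PGCs. The 15 genes of smallest p, chosen as for the other direction, held 2 homeobox genes of the neural plate. *gbx1* (ENSDARG00000071418) encodes a homeodomain factor of the posterior neural plate: PGCs had 7.01 and 15.03 CPM at 7 hpf against 7.75 and 1.66 CPM at 4 hpf. Soma had 40.3 and 53.4 CPM at 7 hpf against 0.719 and 0.969 CPM at 4 hpf. On the log2 scale the difference of changes was -4.52 (standard error 1.01, adjusted p = 0.149), which rests on few soma reads at 4 hpf, with 3 and 5 counts. Both soma libraries of 7 hpf were above every other library of *gbx1*. *msx3* (ENSDARG00000015674), a homeobox gene of the dorsal neural plate and its border, held 0 and 1 counts in 4 hpf soma and was at 12.6 and 32.4 CPM in soma at 7 hpf, and its summed soma counts gave a 7 over 4 hpf ratio of 196 (exact 95% interval from 34.8 to 7762, counting error alone). In PGCs, *msx3* was at 2.28 and 3.99 CPM at 7 hpf, against 0.567 and 0.663 CPM at 4 hpf. *pkdccb* (ENSDARG00000038235), which encodes a secreted tyrosine kinase, rose in both, by 1.97 in PGCs (adjusted p = 0.00967) and by 4.51 in soma (adjusted p = 6.33e-05). *sema4c* (ENSDARG00000079611), a semaphorin, was at 10.2 and 21.4 CPM in PGCs at 7 hpf, against 10.2 and 11.1 CPM at 4 hpf, and at 49.3 and 84.6 CPM in soma at 7 hpf, against 5.99 and 10.1 CPM at 4 hpf.

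Other genes of the same set act in signalling, transport and transcription. *mycl* (ENSDARG00000034956), of the Myc family of growth regulators, shows the crossing: PGCs had 68.0 and 69.3 CPM at 7 hpf against 88.8 and 98.5 CPM at 4 hpf. Soma had 125 and 152 CPM at 7 hpf against 52.5 and 40.3 CPM at 4 hpf. The PGC libraries were above the soma libraries at 4 hpf and below them at 7 hpf. The log2 difference of changes came to -2.03 (standard error 0.39, adjusted p = 0.0989). *fgd6* (ENSDARG00000045528), an exchange factor for the small GTPase Cdc42, had a change of 0.088 in PGCs (adjusted p = 0.948) and rose by 2.20 in soma (adjusted p = 0.000409). *prkar1ab* (ENSDARG00000101755), a regulatory subunit of protein kinase A, had a change of -1.06 in PGCs (adjusted p = 0.121) and rose by 1.55 in soma (adjusted p = 0.0109). *rgs3b* (ENSDARG00000035132), a regulator of G-protein signalling, was at 57.1 and 61.5 CPM in PGCs at 7 hpf, against 28.0 and 32.8 CPM at 4 hpf, and at 232 and 215 CPM in soma at 7 hpf, against 42.7 and 38.8 CPM at 4 hpf. *hip1* (ENSDARG00000062972), a clathrin-coat protein, stayed between 113 and 132 CPM in all 4 PGC libraries, and had 356 and 463 CPM in soma at 7 hpf, against 129 and 165 CPM at 4 hpf. Both *rgs3b* and *hip1* had small differences of changes, at -1.49 and -1.51, with standard errors of 0.36 and 0.38. *tomm20* (ENSDARG00000103566), a receptor for protein import into mitochondria, had a difference of changes of -2.02 and *agfg1b* (ENSDARG00000019526) one of -3.25 (adjusted p = 0.171 and 0.201). That of *agfg1b* rests on few soma reads at 4 hpf, with 3 and 4 counts.

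The gene of smallest p in this direction, *zgc:92242* (ENSDARG00000029443), rose in both cell types: PGCs had 28.4 and 13.6 CPM at 7 hpf against 3.59 and 3.65 CPM at 4 hpf. Soma had 69.9 and 140.2 CPM at 7 hpf against 0.479 and 0.969 CPM at 4 hpf. This gave a log2 difference of changes of -4.57 (standard error 0.78, adjusted p = 0.0885), which rests on few soma reads at 4 hpf, with 2 and 5 counts. *zbtb8os* (ENSDARG00000016368), which encodes archease, a cofactor of the tRNA ligase, was at 2.63 and 2.82 CPM in PGCs at 7 hpf, against 7.18 and 3.15 CPM at 4 hpf, and at 8.37 and 16.8 CPM in soma at 7 hpf, against 0.719 and 0.775 CPM at 4 hpf. For *cercam* (ENSDARG00000079049) and *cabz01030017.1* (ENSDARG00000099418), both soma libraries of 4 hpf were at 0 counts. Against 3 counts in the shallower of them, the lower 7 hpf soma library was at least 19.8-fold higher for *cercam* and at least 36.5-fold higher for *cabz01030017.1*. PGCs had 11.7 and 13.6 CPM of *cercam* at 7 hpf, against 0.567 and 3.15 CPM at 4 hpf, and 0 and 5.402 CPM of *cabz01030017.1* at 7 hpf, against 4.73 and 3.98 CPM at 4 hpf. Of the 15 genes, 14 rose in soma (*hip1*, at 1.47, did not reach the size threshold), 4 rose in PGCs and 0 fell in PGCs, and 13 had a higher fitted level in PGCs than in soma at 4 hpf. Over all 20536 genes tested, 9122 had a higher fitted level in PGCs at 4 hpf. The soma change and the 4 hpf levels are parts of the contrast that chose the 15 genes. These counts therefore describe the genes and test nothing. The adjusted p-values for the difference of changes lay between 0.0885 and 0.201. DESeq2 called 12 of the 15, the likelihood ratio test 13, and the quasi-likelihood test on the 8 libraries alone 1 (*zgc:92242*). As these tests used the counts on which the genes were chosen, their calls are no further evidence.

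**Figure D3:**
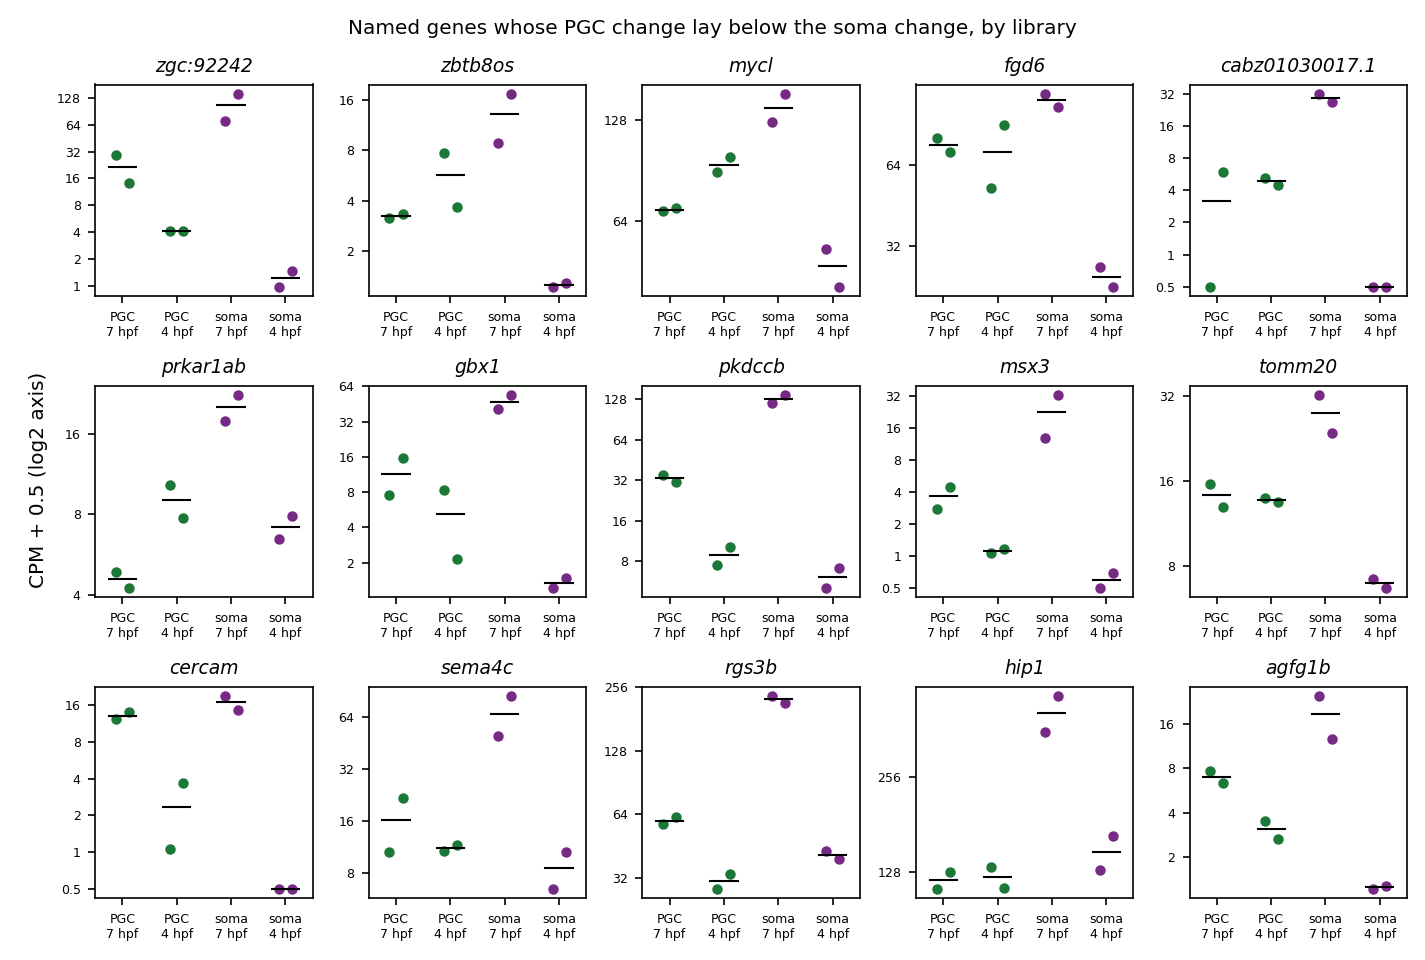
CPM + 0.5 (log2 axis) of the 15 named genes whose PGC change lay below the soma change, drawn as for the other direction (points are libraries, lines are means). In every panel both soma libraries of 7 hpf are above the other 6; for *cercam*, PGCs reach 11.7 and 13.6 CPM at 7 hpf, close to soma.

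Germ plasm RNAs check the labels of the sorted cells. *nanos3*, whose product represses translation in PGCs and which is needed for their survival, was steady in PGCs: PGCs had 711 and 711 CPM at 7 hpf against 669.5 and 645 CPM at 4 hpf. Soma had 1.61 and 1.31 CPM at 7 hpf against 8.15 and 3.29 CPM at 4 hpf. Its soma level was a small part of that in PGCs in all 4 soma libraries, so its difference of changes (2.04, standard error 0.72, adjusted p = 0.328) rests on few soma reads. The sorting transgene carries the untranslated region of *nos3* (*nanos3*), so counts of *nanos3* can include transgene RNA. The part of transgene RNA in these counts was not tested. *dnd1* encodes an RNA-binding protein that protects RNAs from microRNAs in zebrafish PGCs. In PGCs it was at 668 and 841 CPM at 7 hpf, against 674 and 1139 CPM at 4 hpf (log2 change -0.27, standard error 0.55). In soma it was at 0.483 and 2.19 CPM at 7 hpf, against 10.8 and 8.14 CPM at 4 hpf. For *tdrd7a*, a Tudor-domain gene whose product organises germ granules, PGCs had 2061 and 3539 CPM at 7 hpf against 2522 and 3633 CPM at 4 hpf. Soma had 7.41 and 4.59 CPM at 7 hpf against 92.3 and 66.1 CPM at 4 hpf. The gene fell in soma (log2 change -3.71, adjusted p = 0.00206) with a change of -0.14 in PGCs (adjusted p = 0.981). On the log2 scale the difference of changes was 3.57 (standard error 0.92, adjusted p = 0.201). *ddx4*, the Vasa RNA helicase, differed from these: PGCs had 1485 and 1736 CPM at 7 hpf against 1629.8 and 2371 CPM at 4 hpf. Soma had 87.3 and 28.2 CPM at 7 hpf against 88.2 and 92.2 CPM at 4 hpf. Soma replicate 1 of 7 hpf was level with the soma libraries of 4 hpf and replicate 2 was below them, and the difference of changes was 0.33 (standard error 0.73, adjusted p = 1.000), turning to -0.26 without soma 7 hpf replicate 2.

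Of the 28 germ plasm and germline RNAs tested, 23 had a PGC change above the soma change, with a median difference of 1.23 on the log2 scale against 0 over all genes tested. This median was 1.96 without soma 7 hpf replicate 1 and 0.30 with limma on log2(TPM + 1). At an unadjusted p under 0.05 and a log2 past 1.5, 8 lay above (against 6.0% of all genes) and 0 below (against 2.63%): *nanos3*, *dnd1*, *tdrd7a*, *ca15b*, *asz1*, *tdrd1*, *tdrd5* and *ccdc106b*. In soma, 16 of the 28 fell (9.37% of all genes tested) and 0 rose (9.29%), and in PGCs 2 fell (2.08%) and 0 rose (5.03%). The 2 that fell in PGCs were *si:ch211-241j12.3* and the gene ENSDARG00000099235, which shares the name *hook2* with a second identifier. *ca15b*, a carbonic anhydrase gene with germ-plasm RNA, was at 484 and 245 CPM in PGCs at 7 hpf, against 575 and 1164 CPM at 4 hpf. It held 2 and 0 counts in soma at 7 hpf, a 7 over 4 hpf ratio of 0.0105 (exact 95% interval from 0.00126 to 0.0385, counting error alone).

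Genes of the piRNA pathway, which silences transposons in germ cells, were split. *asz1*, a germ-granule protein gene, was at 8.76 and 38.5 CPM in PGCs at 7 hpf, against 28.4 and 37.6 CPM at 4 hpf, and at 0.805 and 0.219 CPM in soma at 7 hpf, against 24.4 and 15.5 CPM at 4 hpf. The log2 difference of changes came to 4.68 (standard error 1.37, adjusted p = 0.244). It rests on few soma reads at 7 hpf, where replicate 2, at 0.219 CPM, lay below the level of 3 counts. At 4 hpf both PGC libraries of *asz1* lay above both soma libraries, but the gap was far smaller than that of *nanos3*. *tdrd1* (2.69, adjusted p = 0.273) and *tdrd5* (2.26, adjusted p = 0.422) behaved alike, with 29.97 and 46.3 CPM of *tdrd1* in 7 hpf PGCs, against 3.54 and 4.37 CPM in 7 hpf soma. The Piwi genes *piwil1* and *piwil2*, which bind the piRNAs, had differences of changes of 0.63 and 0.64 (adjusted p = 0.941 and 0.914), and their 2 soma libraries of 7 hpf lay far apart, at 38.2 and 9.19 CPM for *piwil1* and 20.6 and 3.94 CPM for *piwil2*. Without soma 7 hpf replicate 1 the differences were 2.01 and 2.30, and without replicate 2 -0.047 and -0.087. *pld6*, *adad1*, *tgfa*, *dazl*, *rgs14a* and *gra* had fitted differences above 0, none with an unadjusted p under 0.05 (*dazl*, the RNA-binding Deleted in azoospermia-like gene, at 0.0522). These rest on few soma reads at 7 hpf, with 3 and 0 counts for *pld6*, 8 and 0 for *dazl*, 3 and 1 for *tgfa* and 5 and 3 for *adad1*, so no size is given for these 4. The difference of *gra* was 1.32, and 0.65 without PGC 7 hpf replicate 2, and that of *rgs14a* was 1.86, and 1.00 without PGC 7 hpf replicate 1. Those of *elavl2*, *gpat2*, *golga3*, *si:ch211-241j12.3*, *si:dkeyp-93d12.1* and the *hook2* gene ENSDARG00000039309 lay between 0.069 and 1.13. *tdrd6*, *tdrd9*, *tdrd12*, the other *hook2* gene and *celf1* had negative differences, of which that of *celf1*, an RNA-binding protein gene, had an unadjusted p of 0.00989 (-1.22, adjusted p = 0.307). *celf1* was at 125 and 89.3 CPM in PGCs at 7 hpf, against 126 and 111 CPM at 4 hpf, and at 187 and 156 CPM in soma at 7 hpf, against 67.3 and 95.1 CPM at 4 hpf.

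Summed over the 28 genes, PGCs held 12031 and 12713 CPM at 7 hpf, against 23297 and 40192 CPM at 4 hpf, and soma held 722 and 509 CPM at 7 hpf, against 1413 and 1458 CPM at 4 hpf. The PGC sums at 4 hpf were led by *si:ch211-241j12.3*, at 14593 and 27413 CPM, which was at 5128 and 4415 CPM in PGCs at 7 hpf and fell in both cell types (with log2 changes of -2.14 in PGCs and -2.86 in soma, adjusted p = 0.0129 and 0.000943). In bulk samples such as these, fewer cells of a type and less RNA per cell cannot be told apart. Of the 28 genes, 12 are on the study's own list for 7 hpf PGCs, which was selected on these libraries. In the libraries of 24 and 36 hpf, which the contrast does not use, 8 of the 28 were called higher in PGCs than in soma at 24 hpf (8 genes, 0.039%, of all tested) and 21 at 36 hpf (104 genes, 0.506%), with median PGC against soma log2 fold changes of 4.23 and 6.83. The list was chosen with earlier results of these data known, so the 24 and 36 hpf counts describe its members and are no independent evidence.

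Markers of the enveloping layer, the outer epithelium of the embryo, moved with the comparison. All 19 markers tested had a PGC change above the soma change, with a median difference of 1.93. This median was 3.15 without soma 7 hpf replicate 2, 1.37 without soma 7 hpf replicate 1 and 1.40 without PGC 7 hpf replicate 1. For 13 of the 19 the PGC and soma changes did not overlap (against 12.4% of all genes in that direction). 13 of the 19 rose in PGCs (5.03% of all genes tested) and 8 in soma (9.29%). In the difference, 1 passed the unadjusted threshold (6.0% of all genes), *evpla* at 2.28. The adjusted p of *evpla* was 0.454 in the quasi-likelihood test of edgeR. Their summed level was 12112 and 5945 CPM in PGCs at 7 hpf, against 1219 and 926 CPM at 4 hpf, and 1181 and 2932 CPM in soma at 7 hpf, against 1093 and 1071 CPM at 4 hpf. *krt4*, a keratin gene of this layer, was at 3179 and 1653 CPM in 7 hpf PGCs, against 232 and 766 CPM in 7 hpf soma, and *krt5* at 1481 and 705 against 93.2 and 366 CPM. In both genes the PGC and soma libraries of 7 hpf did not overlap, PGC replicate 1 being the higher of its pair and soma replicate 1 the lower. *ppl* (periplakin), *cyt1* (a type I keratin), *cldne* (a claudin of tight junctions) and *grhl3* (a transcription factor of surface epithelia) had differences of 1.99, 1.99, 2.39 and 2.22, with adjusted p-values between 0.481 and 0.572. None of the keratin markers of this layer was at 0 in any 7 hpf library. The part of these markers, and of the cells they mark, in the other differences was not tested.

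Beyond the 30 genes above and the germline list, the genes named from the lists were chosen after their values were seen. Genes that pattern the ectoderm and neural plate had lower changes in PGCs. Of 51 tested, 38 had a PGC change below the soma change, with a median difference of -1.36, and 25 did not overlap in that direction (11.9% of all genes). At an unadjusted p under 0.05 and a log2 past 1.5, 9 lay below (2.63% of all genes) and 3 above (6.0%). In soma 26 of the 51 rose (9.29% of all genes tested), and in PGCs 16 (5.03%), so that PGC libraries also gained RNA of such genes. Summed over the list, which holds both strong and weak genes, PGCs held 10072 and 5306 CPM at 7 hpf, against 2052 and 2069.5 CPM at 4 hpf, and soma held 5989 and 7310.2 CPM at 7 hpf, against 1725 and 2456 CPM at 4 hpf, so that the 7 hpf sums of PGCs and soma overlapped. *foxi1*, a forkhead factor of non-neural ectoderm, shows both: PGCs had 43.3 and 52.4 CPM at 7 hpf against 19.1 and 12.6 CPM at 4 hpf. Soma had 190.3 and 223 CPM at 7 hpf against 16.3 and 20.7 CPM at 4 hpf. It rose in PGCs by 1.59 (adjusted p = 0.0477) and in soma by 3.48 (adjusted p = 0.000349). This gave a log2 difference of changes of -1.88 (standard error 0.65, adjusted p = 0.319). *gata2* (ENSDARG00000059327), a zinc-finger factor of ventral ectoderm, was at 68.5 and 128 CPM in 7 hpf PGCs, against 349.6 and 257 CPM in 7 hpf soma, with a difference of changes of -1.51 (adjusted p = 0.325). *tfap2a*, a factor of epidermis and neural crest, had -1.80 and *irx7*, an Iroquois homeobox gene, -2.35 (adjusted p = 0.418 and 0.290). *otx1* (ENSDARG00000094992), a homeobox gene of the anterior neural plate, was at 45.6 and 45.8 CPM in PGCs at 7 hpf, against 101 and 57.4 CPM at 4 hpf, and at 209 and 201 CPM in soma at 7 hpf, against 52.0 and 24.4 CPM at 4 hpf. *otx1* was among the 5 genes called lower when the quasi-likelihood test was restricted to the 8 libraries (adjusted p = 0.0287 there and 0.431 with all libraries). The others were *zgc:92242*, *spsb4*, *sulf1*, which encodes a heparan sulfate sulfatase, and ENSDARG00000105311, which has no name in the tables used here. *sulf1* was at 41.9 and 41.6 CPM in PGCs at 7 hpf, against 72.6 and 66.0 CPM at 4 hpf, and at 59.4 and 65.2 CPM in soma at 7 hpf, against 17.98 and 22.7 CPM at 4 hpf.

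The mesoderm, endoderm and organizer genes had a median difference of -0.53, with 47 of 71 below. The median was -1.13 without PGC 7 hpf replicate 1 and -0.11 without PGC 7 hpf replicate 2, and it also moved by over 1.5 times without either soma library of 4 hpf or soma 7 hpf replicate 1 (-0.35, -0.99 and -0.23). At an unadjusted p under 0.05 and the size threshold, 4 lay below (2.63% of all genes) and 3 above (6.0%). *chrd* (chordin), the organizer's antagonist of BMP signals, was at 465 and 227 CPM in PGCs at 7 hpf, against 180.0 and 227 CPM at 4 hpf, and was in soma at 609 and 708 CPM at 7 hpf, against 104 and 127 CPM at 4 hpf (difference of changes -1.74, adjusted p = 0.367). In the other direction, *gdf3* (the maternal Nodal partner Vg1) fell in soma (log2 change -2.97, adjusted p = 0.00261), with 117 and 100.1 CPM in 7 hpf PGCs against 41.7 and 12.9 CPM in 7 hpf soma. Among 15 pluripotency-type transcription factors, 2 lay above and 3 below by the same rule (6.0% and 2.63% of all genes). Their median of -0.50 ranged between -1.18 and -0.092 over the alternatives, being -0.092 without soma 7 hpf replicate 1, -1.03 without soma 4 hpf replicate 2, -0.82 without PGC 7 hpf replicate 1 and -0.81 without soma 7 hpf replicate 2. *klf2a*, *foxd3* and *tfap2c* lay below at -3.30, -1.96 and -1.90. *eomes* (ENSDARG00000006640), a maternal T-box factor of mesendoderm, lay above at 2.66, with 33.6 and 55.0 CPM in 7 hpf PGCs, against 2.42 and 4.37 CPM in 7 hpf soma. Adjusted p-values of these 4 genes were between 0.232 and 0.406. The cadherin gene *cdh2*, of cell adhesion in mesoderm and neural plate, rose in both cell types, by 3.71 in PGCs (adjusted p = 0.000210) and 5.15 in soma (adjusted p = 1.39e-05).

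**Figure D4:**
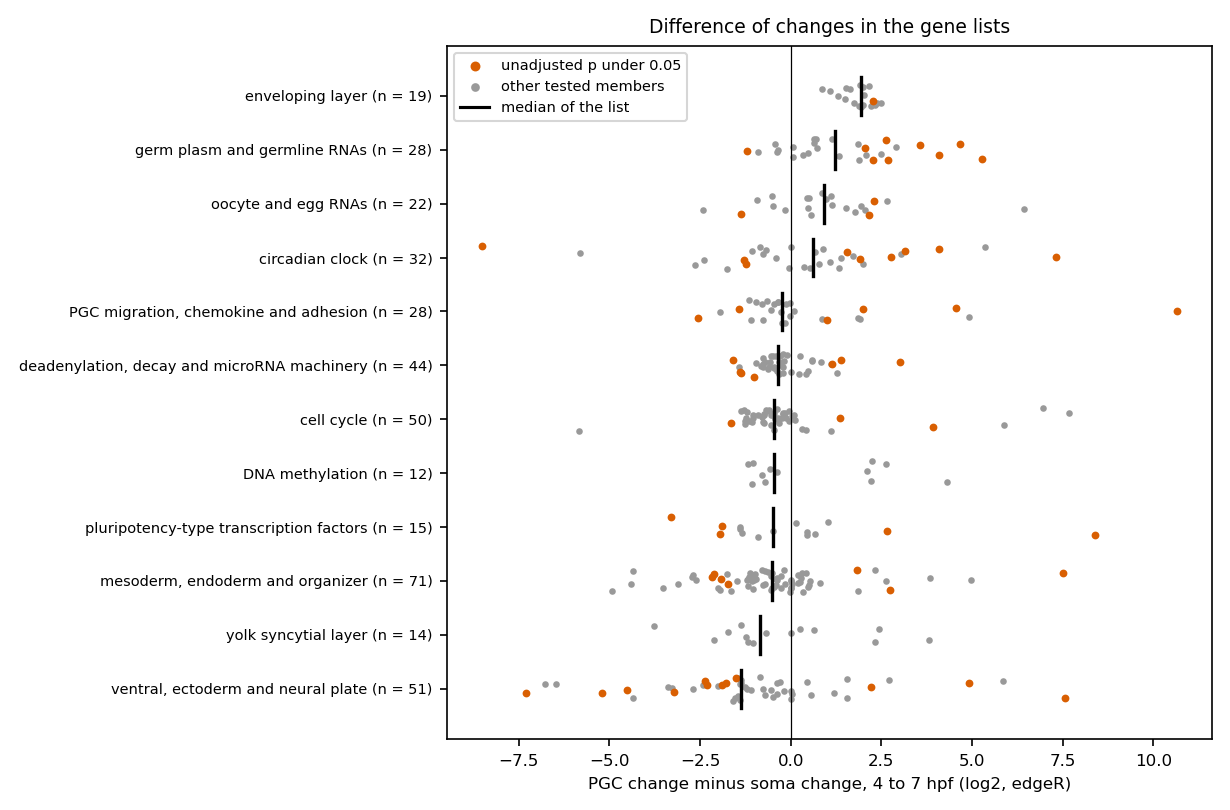
Difference of changes (x axis, log2, PGC minus soma) of the tested members of each gene list (points; orange where the unadjusted p is under 0.05), with the median as a black line. The enveloping layer list has the highest median, 1.93, and the ectoderm and neural plate list the lowest, -1.36.

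Of 22 RNAs of the oocyte and egg tested, 9 fell and 0 rose in PGCs (2.08% and 5.03% of all genes tested). In soma 13 fell and 1 rose (9.37% and 9.29%). The median changes were -2.46 in PGCs and -4.10 in soma, and 16 had the smaller fall or larger rise in PGCs (median difference 0.91). The median difference was 1.42 without soma 7 hpf replicate 1, 0.48 without PGC 7 hpf replicate 2, 0.52 without soma 4 hpf replicate 1 and 0.30 with limma on log2(TPM + 1). Their summed level was lower at 7 than at 4 hpf in PGCs and higher in soma: PGCs held 1727 and 1234 CPM at 7 hpf against 1933 and 1943 CPM at 4 hpf, and soma held 2855 and 3412 CPM at 7 hpf against 1982 and 2037 CPM at 4 hpf. A sum is weighted to the most abundant genes, and as 13 of the 22 fell in soma, its rise there does not describe most of the list. In the difference, 2 passed an unadjusted p of 0.05 and the size threshold above (6.0% of all genes) and 0 below (2.63%). The genes above were *lsm14b*, an RNA-binding protein gene of the LSM14 family, with 16.5 and 22.3 CPM in PGCs at 7 hpf, against 118 and 133 CPM at 4 hpf, and *si:ch211-103b1.2*, with 16.6 and 19.7 CPM in PGCs at 7 hpf, against 125 and 111 CPM at 4 hpf. In soma they were at 3.70 and 1.97 CPM at 7 hpf, against 101 and 83.1 CPM at 4 hpf for *lsm14b*, and at 3.38 and 2.62 CPM at 7 hpf, against 110.2 and 66.1 CPM at 4 hpf for *si:ch211-103b1.2*. Both genes fell in PGCs and in soma. *wee2* (ENSDARG00000012718), which in mammals encodes the oocyte kinase that holds Cdk1 inactive, was on the cell cycle list and is not among these 22 RNAs. It was at 61.0 and 93.2 CPM in PGCs at 7 hpf, against 112 and 137 CPM at 4 hpf. In soma it was at 7.09 and 2.19 CPM at 7 hpf, against 114 and 119 CPM at 4 hpf (difference of changes 3.92, adjusted p = 0.287).

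The machinery that deadenylates and degrades RNA, including the microRNA effectors, had a median difference of -0.35 (-0.15 without soma 7 hpf replicate 1), with 31 of 44 genes below and 13 above, and 1 gene past an unadjusted p of 0.05 and the size threshold in each direction (6.0% of all genes above and 2.63% below). *ago3* (ENSDARG00000063079), an Argonaute that carries microRNAs, was the one above: PGCs had 23.5 and 32.2 CPM at 7 hpf against 81.8 and 54.0 CPM at 4 hpf. Soma had 5.31 and 4.16 CPM at 7 hpf against 95.6 and 91.1 CPM at 4 hpf. On the log2 scale the difference of changes was 3.001 (standard error 0.58, adjusted p = 0.101). The deadenylase gene *pan2* and the helicase gene *ddx6* were above at smaller size (1.38 and 1.13, unadjusted p = 0.00671 and 0.0196, adjusted p = 0.277 and 0.367 in the quasi-likelihood test of edgeR).

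The clock genes had a median difference of 0.61, with 6 of 32 above by the same rule (6.0% of all genes) and 1 below (2.63%), 3 of the 32 being on the study's 7 hpf list. The list was mixed: 18 had a PGC change above the soma change and 13 below it. Changes did not overlap for 5 above and 4 below (12.4% and 11.9% of all genes). The clock genes named in the text all lay above. *per2* (ENSDARG00000034503), a light-responsive repressor of the clock, was at 52.7 and 60.1 CPM in PGCs at 7 hpf, against 55.6 and 47.9 CPM at 4 hpf, and at 7.73 and 3.72 CPM in soma at 7 hpf, against 40.3 and 32.7 CPM at 4 hpf (difference of changes 2.78, adjusted p = 0.166). *per1* (ENSDARG00000012499) had a difference of 3.15 (adjusted p = 0.145). The lists of PGC migration and adhesion (28 tested, median -0.25, 3 above and 1 below by that rule), DNA methylation (12, -0.47, 0 and 0), cell cycle (50, -0.47, 1 and 1) and the yolk syncytial layer (14, -0.86, 0 and 0) held few members past it (6.0% of all genes above and 2.63% below). The direction of the clock, DNA methylation and yolk syncytial layer medians turned under another setting (ranges -0.013 to 0.85, -0.79 to 0.41 and -1.61 to 0.35), and those of the other lists did not. The clock median turned without soma 4 hpf replicate 1, that of DNA methylation without PGC 4 hpf replicate 1 or soma 7 hpf replicate 1, and that of the yolk syncytial layer without PGC 4 hpf replicate 1 or soma 7 hpf replicate 2 and with limma on log2(TPM + 1). The migration median ranged between -0.56 and -0.11, nearest 0 without soma 4 hpf replicate 1. Of the 28 genes of the migration list, 9 had a PGC change above the soma change and 19 below it. *ezr* (ezrin), which links actin to the membrane, was among those above, with a difference of 2.00 (adjusted p = 0.249).

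The libraries of 24 and 36 hpf are outside the contrast, and they show whether PGC and soma levels of these genes stayed apart. In the library titled soma 24 hpf replicate 1, whose source name says PGCs, *nanos3* was at a soma level, and the PGC libraries of 24 hpf had 128 and 71.6 CPM of it, against 0.691 and 0.476 CPM in soma replicates 1 and 2. *dnd1* was at 67.0 and 49.3 CPM in these PGC libraries, against 0.276 and 0.635 CPM in soma replicates 1 and 2. At 7 hpf, 648 genes (3.16% of those tested) were called higher in PGCs than in soma and 167 (0.813%) lower, and at 4 hpf 9 genes (0.0438%) higher and 0 lower. At 4 hpf, the 15 named genes whose PGC change lay above the soma change had a median PGC against soma log2 fold change of 0.052, at 7 hpf of 3.64, at 24 hpf of 0.26 and at 36 hpf of 0.86. Over all genes, the medians at 24 and 36 hpf were 0.061 and 0.0028. At 24 hpf, 12 of the 15 were above 0 and 0 were called (8 genes, 0.039%, of all tested), and 0 passed an unadjusted p of 0.05 and a log2 of 1.5 (2.15% of all tested). At 36 hpf, 14 of the 15 were above 0 and 1 was called (104 genes, 0.506%, of all tested). This gene was *nf2a*, with a PGC against soma log2 fold change of 2.31 (adjusted p = 0.0129, standard error 0.38) and 20.3 and 44.4 CPM in PGCs, against 7.13 and 5.84 CPM in soma. *clasp1a* was at 89.5 and 110.2 CPM in PGCs and 91.7 and 94.1 CPM in soma at 36 hpf, overlapping, with a log2 fold change of 0.10 (adjusted p = 0.878, standard error 0.25). The 15 genes of the other direction had medians of 1.55, -1.97, 0.12 and -0.35 at 4, 7, 24 and 36 hpf, with 0 called at 24 or 36 hpf by edgeR's quasi-likelihood test and 1 at 36 hpf below at an unadjusted p under 0.05 and a log2 past 1.5 (2.76% of all tested).

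**Figure D5:**
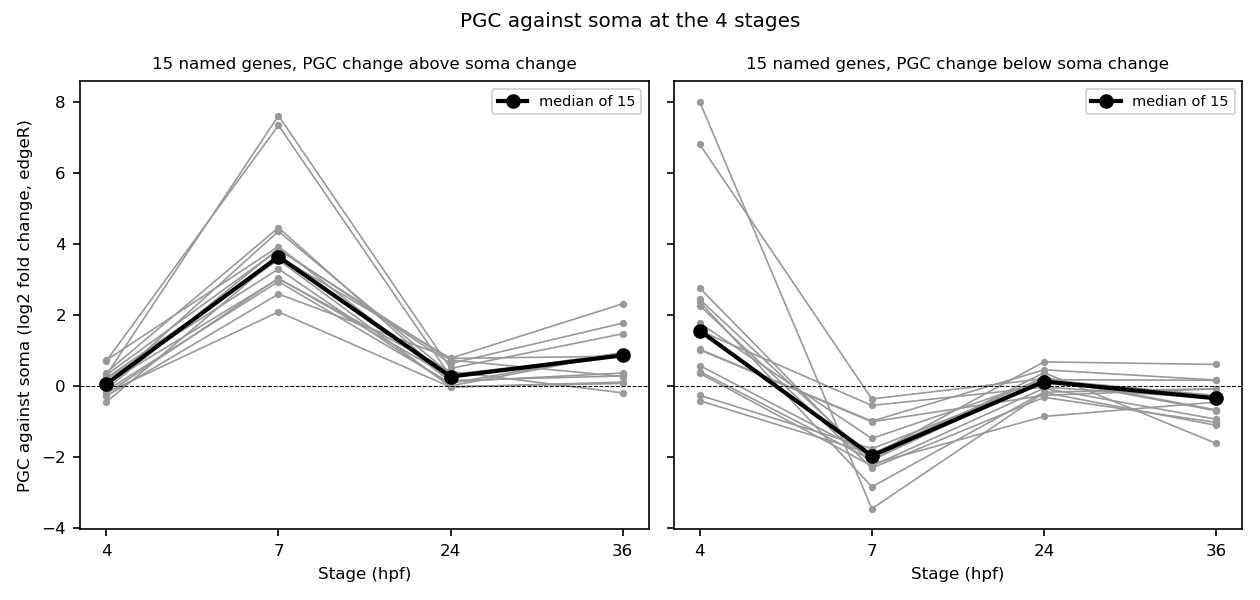
PGC against soma log2 fold change (y axis, edgeR) at 4, 7, 24 and 36 hpf of the 15 named genes of each direction (grey lines) and their median (black). The medians of the left panel are 0.052, 3.64, 0.26 and 0.86, so the gap of 7 hpf is the widest; the genes were chosen on the 4 and 7 hpf values, and the 24 and 36 hpf levels are outside that contrast, although those libraries entered the filter, the normalisation and the spread of the fit.

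The same was computed for the 49 genes called higher when the quasi-likelihood test used the 8 libraries alone, of which 35 are on the study's 7 hpf list. Their median PGC against soma log2 fold change was 0.32 at 24 hpf, with 38 of 49 above 0, and 0.93 at 36 hpf, with 43 of 49 above 0. Of all 20536 genes tested, 11252 were above 0 at 24 hpf and 10286 at 36 hpf. Of the 49, 2 were called at 24 hpf (0.039% of all genes), *tdrd7a* and *ccdc106b*, and 5 at 36 hpf (0.506% of all genes): *tdrd7a* at 8.80 (adjusted p = 0.000322, standard error 0.89), *ccdc106b* at 6.54 (adjusted p = 0.00329, standard error 0.86), *zgc:173742* at 5.56 (adjusted p = 0.00299, standard error 0.75), *tatdn2* at 5.24 (adjusted p = 0.00172, standard error 0.66) and *nf2a* as above. *tdrd7a* and *ccdc106b* are on the germline list, and *tdrd7a* was already above soma at 4 hpf. *tatdn2* was near equal at 4 hpf, at 151 and 159 CPM in PGCs and 187 and 189 CPM in soma, and at 9.65 and 14.2 CPM in PGCs and 0.102 and 0.543 CPM in soma at 36 hpf. *zgc:173742* was at 198 and 221 CPM in PGCs and 254 and 158 CPM in soma at 4 hpf, and at 13.4 and 37.7 CPM in PGCs and 0.509 and 0.543 CPM in soma at 36 hpf. Others of the 49 show the common form of a steep fall in soma: *adipor1b*, an adiponectin receptor gene, was at 57.0 and 60.8 CPM in PGCs at 7 hpf, against 50.1 and 56.2 CPM at 4 hpf, and at 5.15 and 12.2 CPM in soma at 7 hpf, against 57.8 and 74.0 CPM at 4 hpf. *slc16a3*, a lactate transporter gene, and *itpr3*, a calcium channel of the endoplasmic reticulum, had differences of 3.75 and 2.42. The tight-junction gene *tjp3*, which epithelia express, had 269.9 and 186 CPM in 7 hpf PGCs, against 145 and 154 CPM at 4 hpf, and 37.7 and 34.8 CPM in 7 hpf soma, against 106 and 146 CPM at 4 hpf. *smarca2* (Brahma), an ATPase of chromatin remodelling, fell in both, with log2 changes of -2.36 in PGCs and -4.46 in soma (adjusted p = 0.000659 and 1.39e-05).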

How the data were processed

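RNA was measured in PGCs and somatic cells sorted by FACS from transgenic embryos, with libraries made by a SMARTer pico total-RNA kit and sequenced in pairs of 100 bases. According to the study's methods and the submitters' processing notes, reads were trimmed with Trim Galore, aligned with STAR to danRer10 and quantified per gene with RSEM. The authors deposited expected counts, which RSEM estimates by sharing reads among genes and which need not be whole (95.2% of values were), together with effective lengths and TPM (values scaled for transcript length and library size). Near-identical gene copies therefore share reads by estimate. The 92 spike-in rows held 0 counts and were left out.

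Expected counts were rounded and fitted with edgeR 4.0.16 (R 4.3.3; glmQLFit and glmQLFTest) in 1 fit of all 16 libraries and 8 groups, after filterByExpr (minimum count 10, total 15) and TMM normalisation. The contrast was the 7 minus 4 hpf change in PGCs less that in soma. The 24 and 36 hpf libraries entered the filter on low counts, the normalisation, the estimate of the spread and the later comparisons (with the 8 libraries alone, 14900 genes were tested). The source name of the library labelled soma 24 hpf replicate 1 says PGCs, whereas its title and cell type say soma, and it was used as soma. Calls needed a Benjamini-Hochberg adjusted p under 0.05 over all genes tested and a log2 change past 1.5. CPM used TMM library sizes, and changes that do not overlap were judged on log2(CPM + 0.5). DESeq2 1.42.0, limma 3.58.1 on log2 TPM, other filters and normalisation, a replicate block and leaving out each library were alternatives. Scripts were tested on simulated data.

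The named genes were, in each direction, the 15 of smallest p among genes averaging 5 CPM or more whose changes did not overlap (the rule put called genes first, and none was called), and all tested members of the germline list. Other genes were named after their values were seen. The members and lists were chosen with earlier results of these data known. Of the genes tested, 18654 (90.8%) had a name, from the study's tables or an identifier table, in which some symbols lack a paralogue letter. Of 398 list symbols, 29 matched no identifier. One gene group is not reported here. Standard errors were computed from the fold change and the F statistic. Intervals on counts are exact 95% intervals and cover counting error only.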

Additional observations from a re-analysis of the deposited data

How the results depend on the processing

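The count of calls in the difference of changes was 0 in both directions with DESeq2's size factors in edgeR and with offsets for effective length. It was 288 higher and 64 lower with DESeq2, 403 and 99 without the filter on low counts, 33 and 4 with a mean of at least 1 CPM required, 49 and 5 with the 8 libraries of 4 and 7 hpf alone, and 309 and 86 with the likelihood ratio test. Limma gave 6 and 3 on log2(TPM + 1) and 4 and 3 on log2(TPM + 0.1), which moved the median of all genes to -0.11. DESeq2 on the 8 libraries, chosen after seeing the data, gave 266 and 55. Leaving out each of the 8 libraries in turn gave 0 to 35 genes higher and 0 to 2 lower, the highest counts being those without soma 7 hpf replicate 1. The cause of these differences was not tested.

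With the replicate number as a block, the calls were 0 higher and 0 lower. Deviations of same-numbered PGC and soma libraries correlated at 0.264, 0.0897, 0.205 and 0.296 at 4, 7, 24 and 36 hpf, all above 0 and that of 7 hpf under 0.1, so the number was not taken as a pairing.

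None of the 30 named genes changed direction in 19 alternatives. They were chosen for changes that did not overlap and for a small p on the same counts. Their steady direction therefore follows largely from that choice and is no further evidence. Of the germline list, under log2(TPM + 1) *tgfa* turned to -0.13 and *adad1* to -0.097, and *si:dkeyp-93d12.1* to -0.74, and to -0.83 under log2(TPM + 0.1) and -0.66 with length offsets. Leaving out 1 library turned the direction of 11 of its genes, none of them called, with ranges of -0.26 to 1.36 for *ddx4*, -0.50 to 1.00 for *golga3*, -0.047 to 1.32 for *elavl2*, -0.047 to 2.01 for *piwil1*, -0.087 to 2.30 for *piwil2*, -1.04 to 0.047 for *tdrd6*, -0.82 to 0.065 for *tdrd9*, -2.09 to 1.33 for *tdrd12*, -0.38 to 7.21 for *hook2* ENSDARG00000039309, -1.36 to 0.31 for *hook2* ENSDARG00000099235 and -0.40 to 0.77 for *si:dkeyp-93d12.1*. At this depth, 3 counts correspond to 0.483 to 0.719 CPM, which limits the precision of genes near that level.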
